A study of Mus musculus with 7 samples.

Results

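The paternally methylated imprinted loci of the mouse comprise 7 genes in 4 domains, in which a control region carries methylation on the chromosome inherited from the father. The genes are H19 and Igf2, then Dlk1, Meg3 and Rtl1, then Rasgrf1, and Zdbf2. Their regions were chosen by position. A member is any interval of the deposited list of active regions, which are the merged intervals enriched for 5-methylcytosine (5mC) in at least 1 library, that overlaps the RefSeq gene body extended by 10 kb on either side. This gave 63 of 133337 active regions (mm10). The cells were hippocampal neurons of C57BL/6J E18.5 embryos, kept for 11 days in culture in medium with AraC, which blocks cell division. The untreated group had 3 libraries, and the other group had 3 libraries from cultures given 55 mM KCl for 4 h, which depolarises neurons. 5mC-containing DNA was captured with an antibody and sequenced (MeDIP-seq). The pooled input library was not analysed here. No label states that libraries of a group were separate cultures or animals, so p-values reflect only how much these libraries vary, and that variation may be technical.

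Imprinted genes are expressed from 1 parental copy, according to methylation set in the egg or sperm and kept afterwards by DNMT1 and by the zinc finger proteins ZFP57 and ZFP445. At most imprinted domains the methylated copy is the maternal one, and the loci here are exceptions. Igf2 encodes a growth factor and H19 a noncoding RNA, and the control region between them, just upstream of H19, binds the insulator protein CTCF when unmethylated. Dlk1 encodes a transmembrane protein related to Notch ligands, Rtl1 a retrotransposon-derived protein, and Meg3 a noncoding RNA, under a control region upstream of Meg3. Rasgrf1 encodes a guanine nucleotide exchange factor that activates Ras in response to calcium in neurons, and its control region also lies upstream of the gene. Zdbf2 encodes a zinc finger protein, and a long transcript that starts near Gpr1 and reads through the locus is needed in the early embryo for paternal methylation upstream of the ordinary Zdbf2 start. The start of that long transcript is itself methylated in the egg. MeDIP does not separate the parental copies, so the label "paternally methylated" could not be checked against these data. Coordinates of the control regions were not used. The 10 kb windows may leave them out, so heights in the windows do not stand for the control regions. Enrichment also depends on CpG density, which was counted in promoter windows but not over whole regions, because no genome sequence was used. In bulk cultures, fewer methylated cells and less methylation per cell cannot be told apart.

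The promoter sequences show how different the starts of these genes are as targets for 5mC capture. RefSeq promoter windows (250 bases before to 50 after a start, GRCm38, the build equal to mm10 in chromosome coordinates) were found for 5 of the 7 genes, 10 windows in all. None was found for H19 or Rtl1. The 250 bases before 4 of these starts are printed 5′ to 3′ on the gene's strand with CpG dinucleotides in capitals. They were chosen because the first was inside a region of all 6 libraries, the second belongs to the same gene and was not, and the others are the Igf2 window that touched a region and the main Meg3 start.
Zdbf2 first start, chr1:63200108-63200357, plus strand: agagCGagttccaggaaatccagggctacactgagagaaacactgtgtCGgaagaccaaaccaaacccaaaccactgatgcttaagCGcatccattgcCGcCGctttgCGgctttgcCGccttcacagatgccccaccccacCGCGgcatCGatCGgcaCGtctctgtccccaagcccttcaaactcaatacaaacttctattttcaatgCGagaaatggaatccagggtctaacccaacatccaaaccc
Zdbf2 second start, chr1:63273019-63273268, plus strand: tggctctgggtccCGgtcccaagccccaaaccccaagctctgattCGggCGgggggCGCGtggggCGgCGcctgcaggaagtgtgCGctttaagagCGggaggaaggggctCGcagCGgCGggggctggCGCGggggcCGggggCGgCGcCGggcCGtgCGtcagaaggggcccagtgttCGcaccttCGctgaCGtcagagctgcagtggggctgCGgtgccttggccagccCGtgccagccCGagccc
Igf2, chr7:142657497-142657746, minus strand: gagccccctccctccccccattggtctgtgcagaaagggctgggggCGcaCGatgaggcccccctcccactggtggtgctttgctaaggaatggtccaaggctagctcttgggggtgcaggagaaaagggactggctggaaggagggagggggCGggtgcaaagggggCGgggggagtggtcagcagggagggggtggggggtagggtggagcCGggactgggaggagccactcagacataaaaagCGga
Meg3 first start, chr12:109540746-109540995, plus strand: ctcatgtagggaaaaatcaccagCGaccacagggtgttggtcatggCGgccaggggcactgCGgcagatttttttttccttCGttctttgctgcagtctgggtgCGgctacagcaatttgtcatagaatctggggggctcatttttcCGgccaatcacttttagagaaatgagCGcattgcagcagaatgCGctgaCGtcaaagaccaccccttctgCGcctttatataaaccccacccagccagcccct

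The first Zdbf2 start was the only one of the 10 windows covered by a region called in all 6 libraries. All 300 bases of that window lay inside the region chr1:63199895-63200586, and the window holds 15 CpG. The second Zdbf2 window holds 38 CpG, and the nearest region ended 8209 bp before that start. Of all 32851 RefSeq promoter windows, 1.53% overlapped a region called in all 6 libraries. That share was 3.24% among windows with 10 to 19 CpG and 0.599% among those with 30 or more. The first Zdbf2 window thus falls in the CpG class with the highest share and the second in that with the lowest. Such regions were rare in both classes, and the first window is among the few that have one.

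The other windows had no region of all 6 libraries. At Igf2, 60 bases of the printed window, with 7 CpG in all, were covered by a region of 4 libraries, while the 3 other Igf2 windows, with 2, 14 and 24 CpG, met none. At Dlk1, 114 bases of a window with 9 CpG were covered by a region of 2 libraries. The Rasgrf1 window, with 26 CpG, lay 1593 bp from its nearest region when measured from the start. At Meg3 the first start has 13 CpG and lay 403 bp from a region of 2 libraries, and the second start has 1 CpG.

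The core letters of the ZFP57 motif, TGCCGC, which themselves contain a CpG, were searched on both strands. The first Zdbf2 window had 3 matches, the first Meg3 window 1 and 1 Igf2 window 1. Of all windows, 11.6% had at least 1 match and 1.53% had at least 2. The CTCF core found in imprinting control regions had 0 matches in the 10 windows and was present in 0.0365% of all windows. At so low a share, 0 matches in 10 windows were likely for any genes, and H19 had no window. The search thus cannot show whether these loci carry the core elsewhere. A match shows only that these letters are present.

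**Figure D1:**
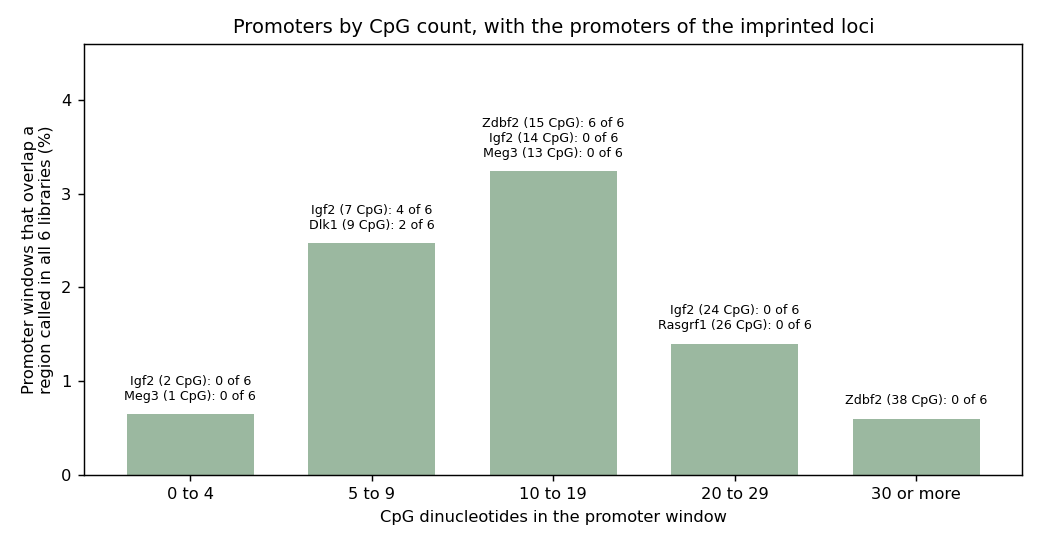
Share of RefSeq promoter windows (%) that overlap a region called in all 6 libraries, by number of CpG dinucleotides in the window; the text over each bar names the windows of the imprinted genes in that class and how many of the 6 libraries called a region there. The highest bar, 3.24%, is for 10 to 19 CpG, the class of the first Zdbf2 start, and the second Zdbf2 start is in the lowest, 0.599%.

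MicroRNA hairpins are part of H19 and of the Meg3 and Rtl1 domain, where many are processed from the maternally expressed noncoding RNAs. Of 20 RefSeq hairpins within the windows, 7 (35%) overlapped an active region, against 8.96% of 1005 hairpins in all. A region called in all 6 libraries was overlapped by 1 of the 20 (5%), near the 2.99% of all hairpins. These 7 are clustered and share regions, so they are not independent. The hairpins of Mir675, in the only region of all 6 libraries that held one, and of Mir770 (4 libraries), Mir127 (3) and Mir431 (1) are printed with CpG in capitals, as examples of hairpins wholly inside an enriched region with different numbers of libraries.
Mir675, chr7:142577064-142577147, minus strand: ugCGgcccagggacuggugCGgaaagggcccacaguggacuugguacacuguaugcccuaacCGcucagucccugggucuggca
Mir770, chr12:109563692-109563785, plus strand: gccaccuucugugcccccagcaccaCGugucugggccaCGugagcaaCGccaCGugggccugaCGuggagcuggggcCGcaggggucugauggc
Mir127, chr12:109592846-109592915, plus strand: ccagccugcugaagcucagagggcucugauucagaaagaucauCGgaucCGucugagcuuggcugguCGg
Mir431, chr12:109590447-109590537, plus strand: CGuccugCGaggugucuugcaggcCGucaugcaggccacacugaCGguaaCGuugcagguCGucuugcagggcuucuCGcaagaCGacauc

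The region over Mir675 had heights of 25 to 58, while those over the other 3 had heights of 9 to 20. Mir337 and Mir3544 lay inside a single region of 5 libraries (chr12:109585738-109586105), which Mir540 overlapped, with heights of 14 to 20. The mature products of Mir675, which is cut from the H19 RNA, and the 3p product of Mir127, which lies antisense to Rtl1, are shown with the seed (bases 2 to 8) in capitals. The 3 seeds differ.
mmu-miR-675-5p: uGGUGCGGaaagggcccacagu
mmu-miR-675-3p: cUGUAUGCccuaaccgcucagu
mmu-miR-127-3p: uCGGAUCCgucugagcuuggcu

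Libraries differed in how many intervals were called, which limits each comparison with KCl. Between 34834 and 93470 intervals were called per library, with median heights of 14 to 16. KCl replicate 3 had the fewest intervals and called 25.7% of all active regions, against 45.0% to 69.4% in the other 5. A height is the authors' value at the summit of an interval and its scaling between libraries is not given in the sources used here. Median heights over the 20537 regions that could be tested were 30, 34 and 27 in untreated replicates 1 to 3 and 34, 26 and 18 in KCl replicates 1 to 3.

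At the imprinted loci a few high regions stood among many low ones. Of the 63 regions, 16 (25.4%) were called in all 6 libraries, against 20.5% of all active regions. Another 15 (23.8%) were called in 1 library, against 29.3%. Mean height, over the libraries with a call, reached the 90th percentile of all active regions in 13 of the 63 (20.6%, against 10% by definition). The shares of calls are near those of all active regions, and these differences were not tested. In the member regions called in all 6 the median of the mean height was 39.8, and 24 over all such active regions. Over all 63 it was 13.8, close to the 13 of all active regions.

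The calls at these loci followed the number of calls in each library. Untreated replicates 1 to 3 called 39, 47 and 36 of the 63 regions, and KCl replicates 1 to 3 called 47, 28 and 18. As shares these were 61.9%, 74.6% and 57.1% untreated and 74.6%, 44.4% and 28.6% with KCl, near the shares of all active regions except for untreated replicate 2, which called 64.7% of those. All 8 regions called in 5 libraries were missing from KCl replicate 3, as were 80% of all active regions called in 5. Regions called only without KCl numbered 14 (22.2%, against 24% of all active regions) and only with KCl 6 (9.52%, against 11.9%). A single region (chr1:63248658-63249111, in Zdbf2) was called in all 3 untreated and in no KCl libraries, with heights of 9, 15 and 10. This is 1.59% of the members, against 1.01% of all active regions. The opposite pattern had 0 members and 0.0367% of all active regions.

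**Figure D2:**
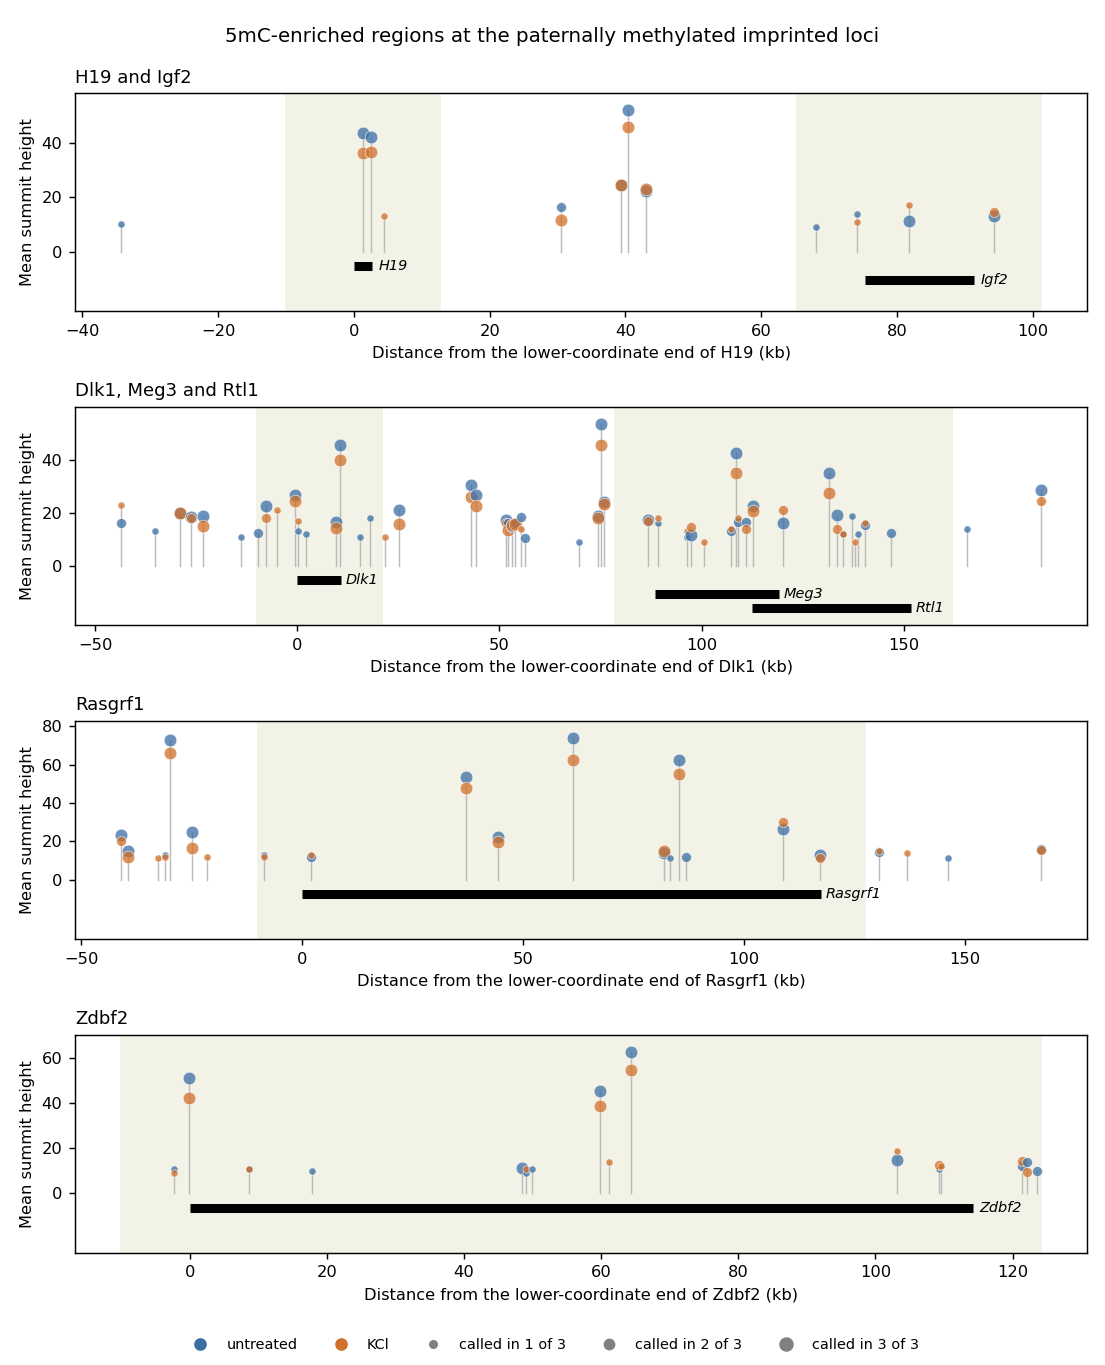
Mean summit height of active regions (vertical axis, as deposited) against distance from the lower-coordinate end of the first gene of each domain (kb), in untreated (blue) and KCl (orange) libraries; point size gives the number of libraries of the group with a call, shading the 10 kb windows and black bars the gene bodies, and unshaded regions lie 10 to 50 kb from a gene. The highest points are within and upstream of Rasgrf1, and Igf2 has low points only.

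Per gene, the regions were densest at Dlk1 and sparsest at Rasgrf1. The Dlk1 window had 3.24 regions per 10 kb, which is the 99.5th percentile of 49943 RefSeq genes treated in the same way, and the windows of Rtl1 and Meg3 had 2.35 and 2.17. H19 had 1.33, Zdbf2 1.19, Igf2 1.11 and Rasgrf1 0.8, and the median over all genes was 0.485. Regions count here whatever their number of libraries. Of the 10 at Dlk1, 3 were called in all 6 libraries, 3 in 2 to 5 and 4 in 1. Meg3 and Rtl1 overlap in RefSeq and share 6 regions, which are counted once in the 63.

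Igf2, the growth factor gene, had 4 regions and none was called in all 6 libraries. Its highest region (chr7:142669629-142670119) lay 2813 bp beyond the upstream end of the gene, in the antisense transcript Igf2os. There the heights were 18, 13 and 9 in untreated replicates 1 to 3 and 14 and 15 in KCl replicates 1 and 2, with no call in KCl replicate 3. This is the 54.8th percentile of all active regions. The region over the start at 142657496 (chr7:142657074-142657506) had heights of 13, 10 and 11 untreated and 17 in KCl replicate 1, the only KCl library with a call. The 2 remaining regions, with heights of 9 to 14, were called in 1 and 2 libraries.

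H19, the noncoding RNA gene of the same domain, had 2 regions called in all 6 libraries, both on the gene. The region over the Mir675 hairpin (chr7:142576582-142577190) had heights of 37, 58 and 36 untreated and 52, 32 and 25 with KCl (means 43.7 ± 12.4 and 36.3 ± 14.0, SD, n = 3 each). The region across the upstream end of the gene (chr7:142577645-142578536) had 39, 47 and 41 untreated and 50, 40 and 20 with KCl (42.3 ± 4.16 and 36.7 ± 15.3). In both regions the groups overlapped and KCl replicate 3 was lowest. The only other region lay 1670 bp beyond the upstream end of the gene, on the side of the control region (chr7:142579816-142580179), and was called in KCl replicate 1 alone at a height of 13. In the other 5 libraries no enrichment was called there.

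Dlk1, the Notch-ligand relative, had 10 regions, of which 3 were called in all 6 libraries. The highest spanned the last part of the gene (chr12:109462697-109463212), with heights of 53, 44 and 40 untreated and 47, 47 and 26 with KCl (45.7 ± 6.66 and 40.0 ± 12.1). A region upstream of the gene (chr12:109451611-109452145), 678 bp before the start in the promoter table, had 30, 28 and 22 untreated and 44, 19 and 11 with KCl (26.7 ± 4.16 and 24.7 ± 17.2). KCl replicate 1 was the highest and KCl replicate 3 the lowest of all 6 libraries in this region, so the KCl group spread around the untreated one. The third (chr12:109461836-109462118) was low, with 21, 19 and 10 untreated and 19, 14 and 10 with KCl (16.7 ± 5.86 and 14.3 ± 4.51).

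Meg3 and Rtl1 shared the highest region of either gene. It lay in the body of Meg3 (chr12:109560708-109561311), with heights of 51, 43 and 34 untreated and 50, 34 and 22 with KCl (42.7 ± 8.5 and 35.3 ± 14.0). A second shared region (chr12:109565097-109565459), where the RefSeq spans of both genes overlap, had 25, 21 and 22 untreated and 24, 21 and 17 with KCl (22.7 ± 2.08 and 20.7 ± 3.51). In Rtl1 alone a region at chr12:109583762-109584253 had 32, 43 and 30 untreated and 39, 25 and 19 with KCl (35.0 ± 7 and 27.7 ± 10.3). The groups overlapped in each of these regions. Of the 19 regions in the windows of Meg3 and Rtl1, the remaining 16 were called in 1 to 5 libraries.

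Rasgrf1, the Ras activator, held the highest region of the 7 genes and 5 regions called in all 6 libraries, all within its body. The highest (chr9:89970635-89971124) had heights of 72, 88 and 61 untreated and 81, 64 and 42 with KCl (73.7 ± 13.6 and 62.3 ± 19.6), the 99.3rd percentile of all active regions. It was 2.26 to 2.59 times each library's own median over tested regions, so its standing was much alike in the 6 libraries. A second (chr9:89994468-89995068) had 63, 73 and 51 untreated and 73, 58 and 35 with KCl (62.3 ± 11.0 and 55.3 ± 19.1). The next after these (chr9:89946446-89947034) had 48, 63 and 50 untreated and 60, 48 and 35 with KCl (53.7 ± 8.14 and 47.7 ± 12.5). In these 3 regions the groups overlapped, and the lowest height was that of KCl replicate 3.

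Lower regions in Rasgrf1 kept less to this order of libraries. At chr9:89953694-89954307 the heights were 24, 23 and 20 untreated and 29, 14 and 16 with KCl (22.3 ± 2.08 and 19.7 ± 8.14), with KCl replicate 2 lowest. At chr9:89991381-89991753 they were 13, 17 and 11 untreated and 20, 14 and 10 with KCl (13.7 ± 3.06 and 14.7 ± 5.03). This last region was too low to be tested, and as deposited its groups overlapped. Once divided by each library's median all 3 KCl values lay above the untreated ones, a pattern that 4.71% of tested regions had.

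Zdbf2 had 16 regions, the most of any of the 7 genes, and 3 of them were called in all 6 libraries. The highest (chr1:63264449-63265060), upstream of the second start and inside the long transcript, had 55, 74 and 59 untreated and 76, 51 and 37 with KCl (62.7 ± 10.0 and 54.7 ± 19.8). Another on the same side, 12863 bp before that start (chr1:63259874-63260406), had 43, 53 and 40 untreated and 51, 43 and 23 with KCl (45.3 ± 6.81 and 39.0 ± 14.4). The region at the first start, which also lies in Gpr1 and covers the promoter printed above, had 48, 61 and 45 untreated and 47, 43 and 37 with KCl (51.3 ± 8.5 and 42.3 ± 5.03). The groups overlapped in all 3, and KCl replicate 1, which was high in the first of them, was below untreated replicates 1 and 2 in the last. The remaining 13 regions had mean heights of 10 to 15.8.

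**Figure D3:**
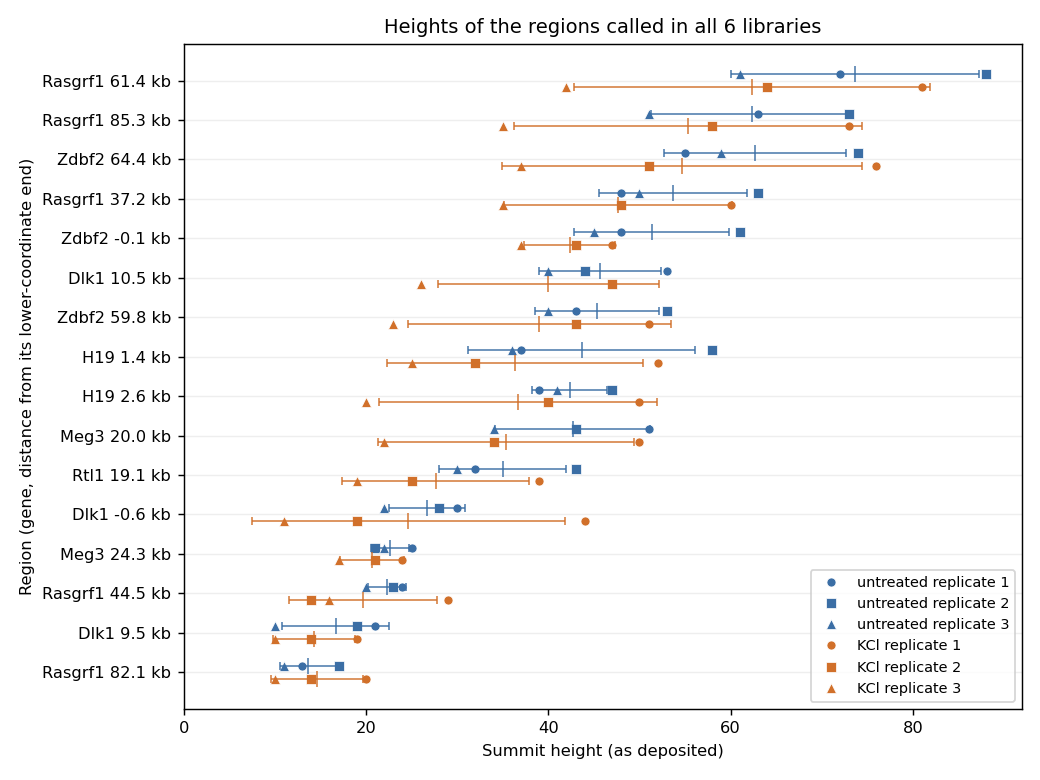
Summit height as deposited (horizontal axis) of the 16 regions called in all 6 libraries, each named by gene and distance from its lower-coordinate end (kb); symbols are libraries, vertical ticks group means and bars 1 SD (n = 3). Untreated (blue) and KCl (orange) points overlap in every region, and KCl replicate 3 (orange triangle) is lowest in most.

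The highest regions of the loci were then set side by side within libraries, where scaling cancels. The 10 pairs among Rasgrf1, Zdbf2, Dlk1, H19 and the shared Meg3 and Rtl1 region were compared on log2(height + 1). The region of Rasgrf1 was higher than that of Zdbf2 by 0.21 ± 0.13 on this scale (SD over 6 libraries), in 6 of 6 libraries. It was higher than those of Dlk1, H19 and Meg3 with Rtl1 by 0.65, 0.77 and 0.80, again in 6 of 6 libraries. Zdbf2 was above Dlk1 by 0.44 ± 0.29, above H19 by 0.56 and above Meg3 with Rtl1 by 0.59, in 6 of 6 libraries each. Dlk1 and H19 differed by 0.12 ± 0.36 (higher at Dlk1 in 4 of 6 libraries), Dlk1 and Meg3 with Rtl1 by 0.15 (5 of 6) and H19 and Meg3 with Rtl1 by 0.03 (4 of 6).

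With the 6 libraries as units, exact sign-flip permutation tests, two-sided, gave an adjusted p of 0.0446 for each of the 7 pairs that had 1 direction in 6 of 6 libraries, from the smallest p possible (0.0312). The other 3 pairs had exact permutation adjusted p = 0.417, 0.195 and 0.75, in the order above. These calls end when same-numbered libraries are taken as pairs, since 3 units cannot give a p below 0.25 (lowest exact permutation adjusted p = 0.312), and when any 1 library is left out (smallest p 0.0625). Each region was also picked as the highest of its locus from the same heights, so the p-values describe these regions and not the loci. Rasgrf1 and Zdbf2 are the longest of these genes, and the part of gene length and of CpG density in the order was not tested.

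High regions also lay 10 to 50 kb from the genes, beyond the windows. Upstream of Rasgrf1, 29529 bp before the gene and in no RefSeq gene, a region (chr9:89879525-89879979) had heights of 63, 93 and 63 untreated and 81, 68 and 49 with KCl (73.0 ± 17.3 and 66.0 ± 16.1). It was as high as the highest region within the gene, at the same 99.3rd percentile. Upstream of Meg3, 13122 bp before the gene and in the transcript Gm34081, a region (chr12:109527309-109527874) had 41, 61 and 59 untreated and 60, 43 and 35 with KCl (53.7 ± 11.0 and 46.0 ± 12.8). This was higher than any region within Meg3 or Rtl1, and lower regions of all 6 libraries flanked it on both sides (chr12:109526596-109527012 and chr12:109528125-109528633). Between H19 and Igf2, 34505 bp from Igf2 and in Gm33148, a region (chr7:142615434-142616263) had 49, 54 and 53 untreated and 62, 49 and 26 with KCl (52.0 ± 2.65 and 45.7 ± 18.2). It was likewise higher than either region on H19, and also flanked by regions of all 6 libraries. Whether any of these regions lies in a control region was not checked.

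With these regions included, the order of the loci was less clear. Windows of 50 kb held 101 regions, 31 of them (30.7%) called in all 6 libraries, and added none at Zdbf2. Rasgrf1 was still first, by 0.25 ± 0.15 over Zdbf2 on the log2 scale in 6 of 6 libraries (SD, n = 6; exact permutation adjusted p = 0.0521). Of the 10 pairs, 0 passed. Meg3 with Rtl1 and H19 with Igf2 now differed by 0.04, with 3 of 6 libraries on either side.

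KCl was compared with no treatment in order to ask whether depolarisation changes 5mC at these loci, and no region passed. Of the 14 member regions that could be tested with limma, 0 were called at an adjusted p under 0.05, on heights as deposited (lowest adjusted p = 0.932) and after centring each library on its median (1). Called regions made up 0% of the 20537 tested. A region was tested where all 6 libraries called it and its mean height was at least 18.7. Of the 63 members, 47 were not called in all libraries and 2 were too low, so 49 were not tested for a change with KCl in the main fit.

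All 14 tested regions were lower with KCl as deposited, with a median log2 change of -0.27, and this was the shift of the whole table. Of all tested regions 90.6% were lower, with a median log2 change of -0.25. Of the 14 regions, 13 had their lowest height in KCl replicate 3, as did 80.5% of all tested regions. Without that library the median log2 change over all regions was -0.02, and 20 member regions could be tested, with 0 called. Changes are therefore given relative to the median region, as relative log2 changes.

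Relative to the median region, 6 of the 14 were higher and 8 lower or equal, with a median of -0.02. They ranged from -0.12 in Rtl1 (chr12:109583762-109584253, limma SE 0.19) to 0.11 in the region shared by Meg3 and Rtl1 (chr12:109565097-109565459, SE 0.22). All tested regions ranged over -0.32 to 0.31 from the 5th to the 95th percentile. Each change was smaller than its SE. Unadjusted limma p-values were under 0.05 in 0 of the 14 regions, with and without centring. The relative log2 changes at the highest regions of Rasgrf1 and Zdbf2 were -0.02 (SE 0.13) and 0.00 (SE 0.14). They were 0.02 at Dlk1 (SE 0.17), -0.04 at both H19 regions (SE 0.17) and -0.07 at Meg3 (SE 0.17).

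The heights of the groups overlapped in all 14 regions. As deposited, 0 had every KCl library below every untreated one, against 4.14% of all tested regions, and 0 the reverse, against 0.0292%. Relative to the library median, 0 were lower without overlap, against 3.83%, and 0 higher, against 4.71%. With SEs of 0.13 to 0.23 after centring, and 0.35 to 0.37 as deposited, changes of several SEs at single regions could go undetected. The absence of calls thus does not show that no region changed.

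Beyond the windows, at 10 to 50 kb, the relative log2 changes spread more widely, the largest at lower regions, where SEs were larger. At the high regions above they were 0.10 upstream of Rasgrf1 (SE 0.13), 0.02 upstream of Meg3 (SE 0.16) and -0.02 between H19 and Igf2 (SE 0.15). A lower region upstream of Rasgrf1 (chr9:89884504-89884923) had heights of 24, 24 and 26 untreated and 22, 18 and 10 with KCl (24.7 ± 1.15 and 16.7 ± 6.11), so that all 3 KCl heights lay below all untreated ones, as deposited and relative to the library median. Its relative log2 change of -0.36 (SE 0.23) was below the 5th percentile of all tested regions, with a limma adjusted p of 0.932 as deposited and 1 after centring. Between H19 and Igf2, at chr7:142617837-142619360, the heights were 23, 23 and 21 untreated and 30, 23 and 16 with KCl (22.3 ± 1.15 and 23.0 ± 7), and overlapped. Relative to the library median the KCl values there were all above the untreated ones, with a relative log2 change of 0.25 (SE 0.21; limma adjusted p = 1). These 2 were the only ones of the 10 tested regions at 10 to 50 kb without overlap on either scale. Of all tested regions, 4.14% were lower without overlap as deposited. Relative to the library median, 3.83% were lower and 4.71% higher. A region too low to be tested (chr12:109476350-109478712) had 18, 20 and 26 untreated and 16, 16 and 15 with KCl, and overlapped relative to the library median. Of the 24 regions tested within 50 kb, 0 were called.

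**Figure D4:**
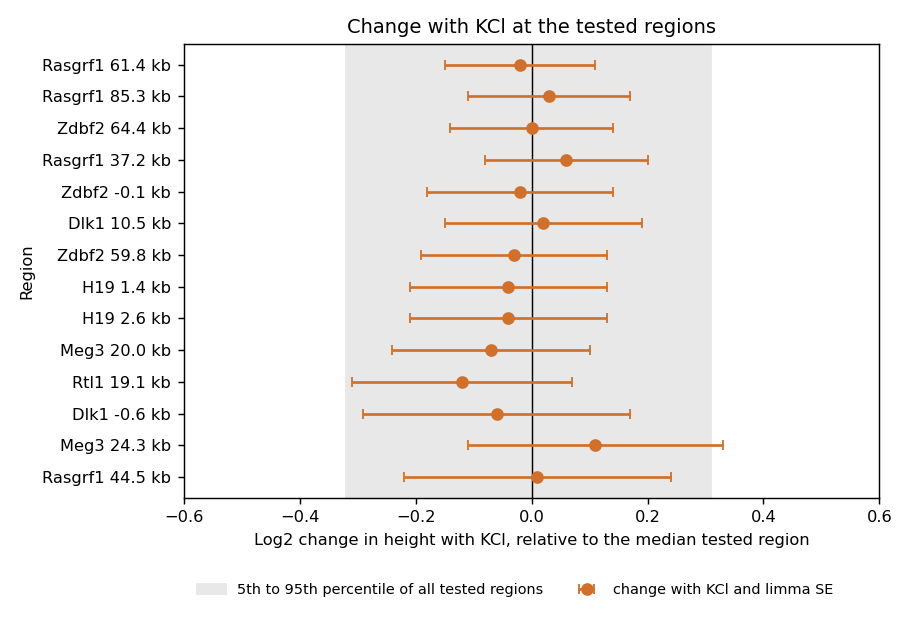
Log2 change in height with KCl relative to the median tested region (horizontal axis) for the 14 tested regions at the imprinted loci, with limma SE as bars; the grey band spans the 5th to 95th percentile of all 20537 tested regions, -0.32 to 0.31. Every point lies between -0.12 and 0.11, inside the band.

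Genes around and behind these loci were described in the same way, by 4 lists. The 14 genes listed as neighbours had 72 regions, 6 of them also members, and 13 (18.1%) were called in all 6 libraries. Among them, Rasgrf2 lies on chr13, outside these domains. Its 11 regions, 3 of them called in all 6 libraries, are part of the counts given here. The highest was shared by Begain and Wdr25, on the Dlk1 side of that domain (mean height 165 ± 33.4 without KCl and 138 ± 41.9 with KCl, SD, n = 3). Rian and Dio3, further along the Meg3 domain, had regions of at most 27 and 14.2, called in 5 and 4 libraries. Relative to the median region, 4 of 10 tested regions were higher and 6 lower, and 0 were called in either direction.

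The 13 regulators of imprints had 65 regions, 18 (27.7%) called in all 6 libraries. Trim28, the corepressor that ZFP57 recruits, had none. The highest region of Ctcf, the insulator gene, had a mean height of 51.7 ± 7.51 without KCl and 44.3 ± 17.2 with KCl (SD, n = 3). Relative to the median region, 8 of 13 tested regions were higher and 5 lower, with a median of 0.02 and 0 called. The relative log2 change at the highest region was -0.33 for the methyltransferase gene Dnmt3a and 0.37 for its cofactor gene Dnmt3l (SE 0.19 each).

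The 10 genes whose products bind or act with those of the loci had 114 regions, 25 (21.9%) called in all 6 libraries. Igf1r, the receptor through which IGF2 signals, had a region with a mean height of 63.0 ± 10.1 without KCl and 66.7 ± 19 with it (SD, n = 3). Its relative log2 change was 0.30 (SE 0.13). At the highest region of Notch2, a Notch receptor gene, it was -0.31 (SE 0.17). The highest regions of Igf2r, which clears IGF2, and of Rras, a Ras-family gene, had mean heights of 34.7 and 114. On the same scale 13 of 20 tested regions were higher and 7 lower, with a median of 0.06 and 0 called.

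Imprinted promoters methylated on the maternal copy were listed for comparison. Windows of these 15 genes, which take in whole gene bodies and not promoters alone, held 80 regions. Of these, 35 (43.8%) were called in all 6 libraries, against 25.4% at the paternally methylated loci. Gnas alone had 18 of the regions, 10 of them called in all 6 libraries, and Igf2r is also in the list before. The 90th percentile of mean height was reached by 28 of them (35%), against 20.6%. The highest regions of Gnas, Mest, Plagl1, Grb10 and Peg3 had mean heights of 89, 84.3, 80.8, 77.3 and 66.7, and the highest in the windows of the paternally methylated loci was 68. The difference between these shares was not tested, and the windows are not alike. The listed genes were chosen for methylated promoters, while windows at the paternally methylated loci may leave out the control regions. With 50 kb windows the shares at the paternally methylated loci were 30.7% called in all 6 libraries and 17.8% at the 90th percentile. Their 10 kb windows also hold the first Zdbf2 start, described above as methylated in the egg. With KCl, 17 of 31 tested regions were higher relative to the median region and 14 lower, with a median of 0.02 and 0 called. At the highest region of each gene, the relative log2 change ran from -0.28 at Nnat (SE 0.16) to 0.62 at Peg13 (SE 0.23). At Mest it was 0.33 (SE 0.12).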

How the data were processed

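MeDIP-seq tracks were used for 3 untreated and 3 KCl libraries. The submitters' processing notes name BWA, SICER and mm10, with no versions. Neither filters on reads, settings of the caller nor read totals were found in the labels or headers. Depth is thus unknown, and intervals for counting error were not computed. Per the file headers, the 13 deposited tracks held called intervals, summits and merged active regions. The deposited heights, whole numbers of at least 6 and neither read counts nor another standard unit, are the authors' values at interval summits, and each region took its highest summit per library. The plan assumed a signal track, and the same test was used on these heights.

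Regions called in all 6 libraries whose mean height reached the 25th percentile (18.7) were compared on log2(height + 1) with limma 3.58.1 (R 4.3.3; intensity trend, Benjamini-Hochberg adjustment over 20537 regions, threshold 0.05, two-sided). Changes on this scale understate those of low regions, and SEs come from the fit after median centring. The fit and the exact permutation tests (Python 3.11.15, scipy 1.17.1) do not use pairing unless named. Same-numbered libraries deviated together from their group means (correlations of 0.11, 0.11 and 0.15 across regions). By the limit of 0.1, which these values pass narrowly, the numbers pair the samples. Between numbers the correlations were -0.09 to -0.02. Those are not separate evidence, since deviations within a group cancel each other. What a number stands for is not in the labels. The limma script was tested on simulated heights, with changes placed in regions at or above the median height. Most 1.5-fold changes were missed there, and on heights as deposited most 2-fold changes were missed too, but not after centring. The random variation of the simulated heights was assumed and not estimated from these libraries, so real changes may be found less or more often.

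Regions named with all their heights were those called in all 6 libraries and the highest of each gene. The single-library region beside H19, the other Igf2 regions, the Zdbf2 region called only without KCl and the regions at 10 to 50 kb were added after their values were seen. The members and lists were chosen with earlier results of these data known. Gene spans, promoters and hairpins came from RefSeq (GRCm38), without exons, so exons, introns and untranslated parts were not assigned. The RefSeq spans of Zdbf2 and Rtl1 include long transcripts. Coordinates are 1-based. The alternatives were scaling, height filter, pseudocount, summit choice, replicate block, window size, number of libraries and leaving out each library. The paired form of the permutation tests was added after the data were seen.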

Additional observations from a re-analysis of the deposited data

How the results depend on the processing

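In all 16 alternatives to the limma fit, 0 member regions were called, and the lowest adjusted p was 0.198, without KCl replicate 1, when the median change over all regions was -0.46. The replicate block gave a lowest limma adjusted p of 0.857 (0.996 with median centring) and changed no call of a region. The number of member regions was 101 with 50 kb windows and 16 when all 6 libraries had to call a region. Single libraries left out gave 57 to 63. Of the 7 pairs of loci that passed, 0 did so with 50 kb windows (lowest exact permutation adjusted p = 0.0521), 0 with any 1 library left out, where 5 libraries cannot reach the threshold, and 0 with a replicate block over the 3 numbers (lowest exact permutation adjusted p = 0.312), which was chosen after seeing the data. The count was also 7 with the mean of summits and with a pseudocount of 5.

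The relative log2 changes lay between -0.12 and 0.11, and the sign turned in 26 of 196 alternative values. With single libraries left out the changes ranged over -0.36 to 0.14 (chr12:109451611) and -0.10 to 0.13 (chr12:109462697) at Dlk1, and -0.14 to 0.09 (chr7:142576582) and -0.14 to 0.10 (chr7:142577645) at H19. They ranged over -0.14 to 0.06 (chr12:109560708) and -0.02 to 0.21 (chr12:109565097) at Meg3 with Rtl1. At Rasgrf1 they were -0.02 to 0.10 (chr9:89946446), -0.12 to 0.22 (chr9:89953694), -0.06 to 0.03 (chr9:89970635) and -0.02 to 0.09 (chr9:89994468). At Zdbf2 they were -0.16 to 0.12 (chr1:63199895) and -0.12 to 0.07 (chr1:63259874). With regions called in at least 2 libraries of each group, the changes were -0.04 at Dlk1 (chr12:109462697), and -0.05 (chr9:89953694) and -0.03 (chr9:89994468) at Rasgrf1. With the mean of summits in place of the highest, the second H19 region moved from -0.04 to -0.28. The cause of this move at H19 was not tested. With no height filter the Rasgrf1 region at chr9:89953694 was at -0.01. The median log2 change taken as reference was -0.23 with no height filter. It was -0.19 with at least 2 libraries of each group, and -0.25 in the main fit. Relative changes under both settings thus moved with the reference. The change at Rtl1 (chr12:109583762) kept its sign, from -0.18 to -0.05 with single libraries left out, and that of the highest Zdbf2 region, at 0.00, ranged over -0.08 to 0.05. Regions missing a call in any library, mostly KCl replicate 3, are outside the main fit. Some of them entered 2 alternatives. The fit with at least 2 libraries of each group held 21 member regions, and that without KCl replicate 3 held 20.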
